A study of Mus musculus with 12 samples.

Results

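The E2F factors and the pocket proteins p107 and p130 were followed through the transcriptomes of mouse hair follicle stem cells (HFSCs). The 10 genes E2f1 to E2f8, Rbl1 and Rbl2 were found by symbol, once each, among the 17885 genes of a table of control and Eed iKO libraries and among the 21915 genes of a table of anagen and telogen libraries. All mice were C57BL/6J, and HFSCs were sorted from back skin by flow cytometry for EpCAM+, CD34+ and α6-integrin high cells that were Sca1-. The hair cycle table holds 3 anagen libraries from wildtype mice at postnatal days 28 to 30, when bulge stem cells have been activated, and 3 telogen libraries from wildtype mice at days 50 to 52, when they rest. The other table holds 3 control libraries, labelled wildtype, and 3 libraries labelled Eed -/-, all from mice at day 70. The Eed iKO mice carried K15-CrePGR and Eed fl/fl, so that the K15 promoter restricted the Cre to the bulge, and RU-486 was put on their back skin for 7 days from day 50. Per the methods the controls received the solvent, so RU-486 and the loss of Eed cannot be told apart. Age and hair cycle stage cannot be told apart in the other table. Each library was made from amplified RNA of sorted cells. Per the study, libraries of the Eed comparison are biological replicates from more than 1 litter, and hair cycle libraries come from several animals a stage. The labels give replicate numbers and do not tie a library to an animal or litter.

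E2F factors bind the promoters of genes for DNA replication and mitosis. E2F1, E2F2 and E2F3 are activators, E2F4 and E2F5 work mainly as repressors together with p107 (Rbl1) or p130 (Rbl2), E2F6 acts without pocket proteins in a Polycomb complex called PRC1.6, and E2F7 and E2F8 are atypical repressors that bind DNA without a DP partner. In resting cells p130 with E2F4 and the MuvB proteins forms the DREAM complex, which keeps cell cycle genes low, and cyclin-dependent kinases release the pocket proteins from E2F when cells enter the cycle. Bulge stem cells rest for most of the hair cycle and divide in early anagen.

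Promoters are shown because E2F1, E2F3, E2F8, p107 and the DP1 partner are themselves encoded by genes of the cell cycle, and because the letters bound by E2F and by MuvB can be seen in some of them. RefSeq (GRCm38.p6) held promoters of 250 bases before to 50 after the start for 8 of the 10 genes, all but E2f4 and E2f5. The E2F letters searched on both strands were TTTCCCGC, TTTCGCGC, TTTGCCGC and TTTGGCGC, and a shorter form left out the last C, so that it lies within every longer match. The CHR letters, bound by MuvB, were TTTGAA. The lines below give 120 bases before to 30 after the start, 5′ to 3′ on the strand of the gene, with matches in capitals.
E2f1, chr2:154569397-154569546, minus strand: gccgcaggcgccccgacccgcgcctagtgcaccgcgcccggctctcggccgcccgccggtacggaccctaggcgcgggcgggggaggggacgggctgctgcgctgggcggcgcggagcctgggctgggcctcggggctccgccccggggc
E2f3, the first of its 2 entries, chr13:29986034-29986183, minus strand: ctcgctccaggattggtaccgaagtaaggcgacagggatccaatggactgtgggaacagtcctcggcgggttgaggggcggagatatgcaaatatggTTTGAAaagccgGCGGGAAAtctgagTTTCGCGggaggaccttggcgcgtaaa
E2f8, chr7:48881567-48881716, minus strand: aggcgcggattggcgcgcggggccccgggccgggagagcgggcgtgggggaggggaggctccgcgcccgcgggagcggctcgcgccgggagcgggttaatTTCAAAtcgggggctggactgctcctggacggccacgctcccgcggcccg
Rbl1, chr2:157204505-157204654, minus strand: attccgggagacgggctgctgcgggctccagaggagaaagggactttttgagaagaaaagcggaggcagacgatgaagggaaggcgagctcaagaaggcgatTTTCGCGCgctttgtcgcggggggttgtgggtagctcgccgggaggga
Tfdp1, the first of its 2 entries, chr8:13338631-13338780, plus strand: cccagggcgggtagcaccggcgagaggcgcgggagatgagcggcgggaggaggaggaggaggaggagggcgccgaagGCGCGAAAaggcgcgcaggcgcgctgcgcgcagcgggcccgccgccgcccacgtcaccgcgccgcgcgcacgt
The E2f3 promoter held a longer E2F match, a shorter one and a CHR match within this stretch. Rbl1 and Tfdp1 each held a longer E2F match, E2f8 held a CHR match, and these letters were not found in the E2f1 entry. That entry (chr2:154569377-154569676) lies wholly inside the annotated gene, which reaches 154569892 on this minus strand. The bases at and before that gene end were thus not searched, and the entry does not show whether E2f1 has such letters there. Of the members not printed, E2f2 held E2F letters after the start of its first entry and CHR letters in its second, E2f7 held a longer E2F match and Rbl2 a CHR match farther upstream, and E2f6 held none. The longer E2F letters occurred in 2.26% of 32851 promoters and in 11 of 29 promoters (37.9%) of the G1/S target genes described below, the shorter form in 6.7% and 44.8%. CHR letters occurred in 17.9% of all promoters, in 12 of 17 promoters (70.6%) of G2/M target genes and in 3 of 29 (10.3%) of G1/S target genes. A match of letters is not a bound site.

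Values are normalized counts, and the 2 tables were normalized separately, so levels are compared only within a table. Values of the Eed table were whole counts scaled by 1 constant per library. In the hair cycle libraries only 0.1% to 0.3% of values above 0 were such multiples, so how these were scaled was not established. Log2 fold changes and their standard errors (SE) come from limma on log2(normalized count + 1), with p-values adjusted by Benjamini and Hochberg over all genes tested, and a gene was called at an adjusted p under 0.05. The Eed table rested on 33269583 to 57063586 reads a library, whereas the files give no depth for the anagen and telogen libraries. Bulge markers had a summed normalized count of 236500 to 626700 in telogen and 551500 to 663800 in anagen. The lowest sum was that of telogen replicate 1, where Krt15 (142400) and Krt5 (50460) made up the largest parts. Besides, 2 proteins used in the sort had genes called in opposite directions. In anagen Cd34 had a log2 fold change of -1.21 (SE 0.20, adjusted p = 0.00382) and Itga6 0.97 (SE 0.21, adjusted p = 0.0144). Melanocyte markers summed to 81.3 to 159.6 in telogen and 437.0 to 802.8 in anagen, with 1 of 4 tested genes (Dct) called, and fibroblast markers to 315.2 to 647.7 and 468.7 to 627.9, with 2 of 4 called. Hair germ and matrix markers summed to 892.3 to 991.9 in telogen and 602.3 to 773.5 in anagen. Of these genes, 1 of 6 tested was called lower, Msx2 (-1.60, SE 0.31, adjusted p = 0.00806). Msx1 went the other way without a call (2.00, SE 0.72, adjusted p = 0.1), with groups that did not overlap. Immune (102.1 to 113.4 and 82.68 to 117.3), endothelial and epidermal marker sums overlapped between the stages, with 1 of 6 epidermal genes called, Flg (2.82, SE 0.36, adjusted p = 0.000682). Over all genes tested in this table, 7.22% were called higher in anagen and 4.35% lower, the shares that stand beside these marker counts. The part of these other cells in the results was not tested. In bulk samples, fewer cells that express a gene and less RNA per cell cannot be told apart.

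The hair cycle comparison asked how activated HFSCs differ from resting ones. All 3 activator genes and the atypical repressor gene E2f8 were higher in anagen, whereas the genes for the repressors that work with pocket proteins, E2f4 and E2f5, kept values that overlapped between stages. Of the 10 genes, 4 were called higher in anagen and 0 lower, against 7.22% of the 13457 genes tested called higher and 4.35% called lower. At an unadjusted p under 0.05, 5 of the 10 were higher and 0 lower, against 15.1% and 12.2% of all genes. The same 4 genes passed the thresholds of the methods, a log2 fold change over 2 with a p under 0.05 (read here as unadjusted), which 3.33% of all genes passed upward. All 3 anagen libraries lay above all 3 telogen libraries in the case of 6 of the 10 genes, a pattern seen in 18.1% of all genes. All 10 genes passed the filter on low values. The median log2 fold change was 0.78 over the 10 genes and 0.01 over all genes tested.

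**Figure D1:**
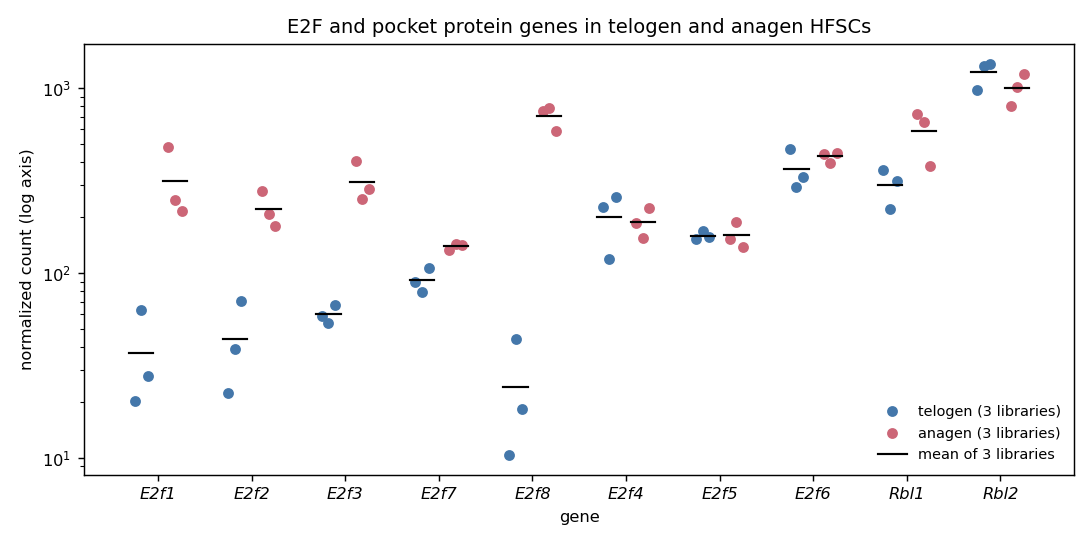
Normalized counts (log axis) of the 10 genes in each of the 3 telogen (blue) and 3 anagen (red) libraries, with the mean of each group as a black bar. E2f1, E2f2, E2f3 and E2f8 lie apart by the widest gaps, E2f7 and Rbl1 lie apart by less, and the points of E2f4, E2f5, E2f6 and Rbl2 overlap.

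E2f1 encodes the founding activator of the family (ENSMUSG00000027490.17, chr2:154559407-154569892, minus strand, GRCm38). Its normalized counts were 20.3, 63.4 and 27.8 in the telogen libraries and 484.2, 250.1 and 216.7 in the anagen libraries. Each anagen library was thus at least 3 times the highest telogen library, and anagen replicate 1 was the highest of the 6. The means were 37.2 ± 23.0 and 317.0 ± 145.7 (SD, n = 3 each), and the log2 fold change was 3.13 (SE 0.50, limma adjusted p = 0.00305).

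E2f2, which encodes the second activator (ENSMUSG00000018983.9, chr4:136172394-136196057, plus strand), had normalized counts of 22.3, 38.9 and 70.9 in telogen and 277.2, 208.3 and 179.8 in anagen. The groups lay apart, with a log2 fold change of 2.43 (SE 0.47, limma adjusted p = 0.00827). Without anagen replicate 1, the highest library, the log2 fold change was 2.26 and the adjusted p was 0.0586. E2f3, which encodes the remaining activator (ENSMUSG00000016477.18, chr13:29906575-29986063, minus strand), had 58.8, 53.8 and 67.4 in telogen and 402.2, 251.3 and 285.4 in anagen. Its telogen libraries varied least of the activators, and its log2 fold change was 2.34 (SE 0.35, limma adjusted p = 0.00202).

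E2f8, an atypical repressor gene (ENSMUSG00000046179.17, chr7:48866429-48881596, minus strand), changed most of the 10 genes. Its normalized counts were 10.3, 44.0 and 18.3 in telogen and 757.5, 780.9 and 588.4 in anagen. The mean rose 29.3-fold, from 24.2 ± 17.6 to 708.9 ± 105.0 (SD, n = 3 each), a log2 fold change of 5.04 (SE 0.49, limma adjusted p = 0.00013). The annotation shares 11.2% of its exon bases with Gm2788 on the opposite strand, and reads of the pair are not separated without strand. E2f7, which encodes the other atypical repressor (ENSMUSG00000020185.16, chr10:110745439-110787384, plus strand), had 89.5, 79.0 and 105.9 in telogen and 133.0, 143.6 and 142.0 in anagen. Its groups also lay apart, yet by a small step, and the log2 fold change of 0.61 (SE 0.35, adjusted p = 0.288) was not called. The difference between the 2 atypical genes was not tested.

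**Figure D2:**
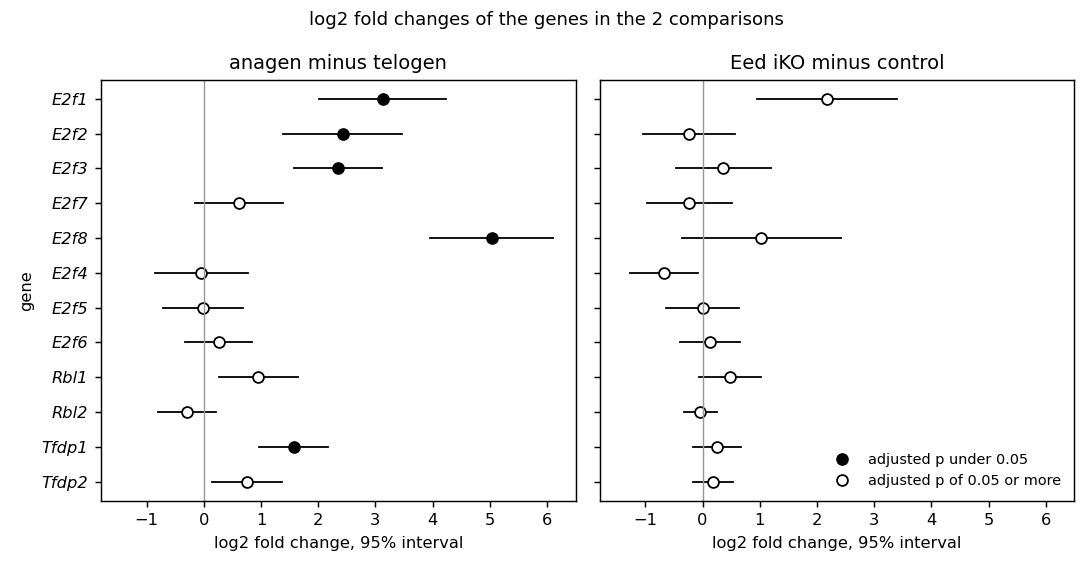
Log2 fold changes with 95% intervals of the 10 genes and of the DP partners Tfdp1 and Tfdp2, for anagen minus telogen (left) and Eed iKO minus control (right), from 3 libraries a group. Filled points had an adjusted p under 0.05, which held on the left for E2f1, E2f2, E2f3, E2f8 and Tfdp1, and on the right for none, where E2f1 lies farthest from 0.

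E2f4, the main E2F partner of p130 in resting cells (ENSMUSG00000014859.9, chr8:105297663-105305370, plus strand), had normalized counts of 227.5, 119.6 and 259.6 in telogen and 186.1, 154.8 and 223.8 in anagen. The anagen values lay within the telogen range, and the log2 fold change was -0.04 (95% interval -0.85 to 0.77). E2f5, also a repressor that needs a pocket protein (ENSMUSG00000027552.14, chr3:14578641-14606309, plus strand), had 153.4, 169.0 and 156.8 in telogen and 152.5, 188.3 and 139.0 in anagen, with a log2 fold change of -0.01 (95% interval -0.71 to 0.69). Neither gene kept its sign in every fit that dropped a library. E2f6, the PRC1.6 member (ENSMUSG00000057469.8, chr12:16810963-16839742, plus strand), had 471.6, 292.9 and 331.0 in telogen and 441.7, 393.3 and 448.0 in anagen. Its values overlapped too, with a log2 fold change of 0.26 (95% interval -0.33 to 0.84).

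Rbl1 and Rbl2, whose proteins share the pocket that binds E2F, had opposite signs of small log2 fold changes, neither of them called. Rbl1 (ENSMUSG00000027641.13, chr2:157145893-157204534, minus strand) had normalized counts of 359.3, 223.4 and 315.9 in telogen and 725.1, 658.3 and 381.8 in anagen. All anagen values were above the telogen values, although anagen replicate 3 came close to the highest of them. The log2 fold change was 0.95 (SE 0.31, adjusted p = 0.0771), and without anagen replicate 3 it was 1.23 with an adjusted p of 0.0494. Rbl2 (ENSMUSG00000031666.15, chr8:91070057-91123844, plus strand) had 976.3, 1328 and 1361 in telogen and 797.6, 1018 and 1192 in anagen. These ranges overlapped, and the log2 fold change was -0.29 (SE 0.23, adjusted p = 0.454). The annotation shares 21.0% of the exon bases of Rbl2 with genes on the opposite strand.

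To order the genes within a stage, normalized counts were divided by the length of the longest coding transcript. In telogen, Rbl2 stood first at 248 ± 43.3 normalized counts per kilobase (SD, n = 3), apart from E2f6 at 151 ± 38.9. E2f6, E2f4 (101 ± 36.8) and E2f5 (89.8 ± 4.59) overlapped from one neighbour to the next. Rbl1 followed at 61.6 ± 14.3, apart from E2f5 and overlapping E2f4. The lowest levels per kilobase were those of E2f7 (16.7 ± 2.47), E2f1 (13.5 ± 8.34), E2f3 (11.8 ± 1.35), E2f2 (9.29 ± 5.21) and E2f8 (6.56 ± 4.76), neighbours that overlapped. The telogen order thus had the pocket proteins and the E2F4 to E2F6 genes above all the activators.

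In anagen, E2f8 went from last to second at 192 ± 28.5 normalized counts per kilobase, overlapping Rbl2 (204 ± 40.1) and E2f6 (177 ± 12.4). Rbl1 (121 ± 37.4), E2f1 (115 ± 52.9), E2f4 (94.5 ± 17.3) and E2f5 (89.9 ± 14.3) came next and overlapped from neighbour to neighbour. E2f3 (61.4 ± 15.5) and E2f2 (46.8 ± 10.6) followed, and E2f7 was last at 25.5 ± 1.04, apart from E2f2. With the union of exons as the length, E2f6 moved to rank 4 in telogen and rank 7 in anagen, and E2f8 stayed second in anagen.

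Ratios of 2 genes within a library do not depend on a scaling shared by all its genes. How the hair cycle libraries were scaled was not established, so whether this holds for their ratios was not tested. E2f1 amounted to 8.94%, 53.0% and 10.7% of the normalized count of E2f4 in the telogen libraries and to 260.0%, 162.0% and 96.8% in the anagen libraries, so the stages did not overlap. E2f8 amounted to 2.19%, 15.0% and 5.53% of E2f6 in telogen and 171.0%, 199.0% and 131.0% in anagen, again without overlap. Rbl1 amounted to 36.8%, 16.8% and 23.2% of Rbl2 in telogen and 90.9%, 64.7% and 32.0% in anagen, where anagen replicate 3 fell among the telogen values.

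**Figure D3:**
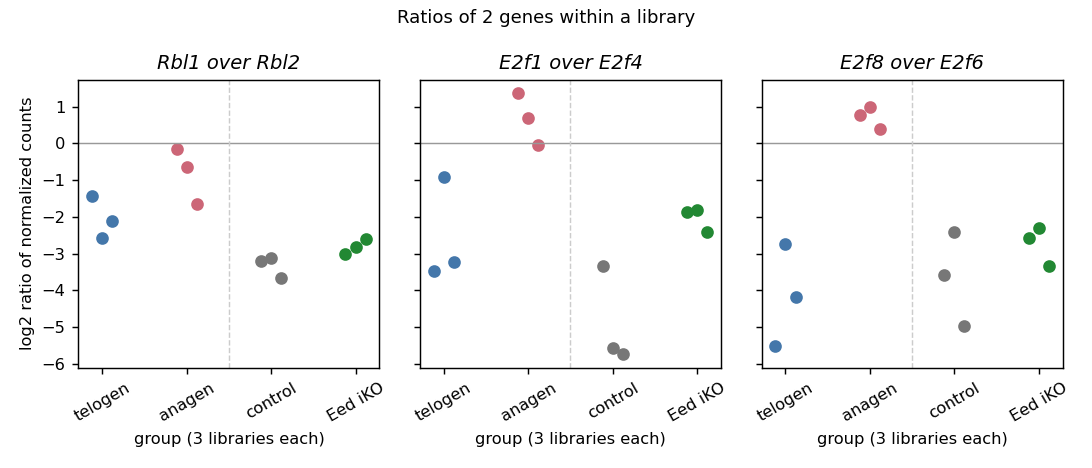
Log2 ratios of the normalized counts of Rbl1 over Rbl2, E2f1 over E2f4 and E2f8 over E2f6 in each library, with 3 libraries in each of the groups telogen, anagen, control and Eed iKO. The dashed line parts the separately normalized tables. E2f1 over E2f4 runs from -3.48 to -0.92 in telogen and from -0.05 to 1.38 in anagen, and from -5.75 to -3.35 in control and -2.41 to -1.82 in Eed iKO.

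The partners of these factors differed in how they moved. Tfdp1, which encodes the DP1 subunit that activator and repressor E2Fs need to bind DNA, had normalized counts of 413.7, 751.7 and 745.9 in telogen and 2182, 1909 and 1464 in anagen (log2 fold change 1.57, SE 0.27, limma adjusted p = 0.00467). All its anagen libraries were near or above 2 times the highest telogen library. Tfdp2, for the DP2 subunit, had a log2 fold change of 0.75 (SE 0.28, adjusted p = 0.104), with groups that did not overlap. Among 7 genes for MuvB, B-Myb and FoxM1, only Foxm1, a transcription factor of mitotic genes, was called (log2 fold change 3.84, SE 0.84, adjusted p = 0.0142), and its adjusted p was 0.0708 without anagen replicate 1 and 0.0501 without anagen replicate 3. The list had a median of 0.46, and 7.22% of all genes tested were called higher.

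Of 8 genes for cyclins and kinases that phosphorylate pocket proteins, 5 were called higher in anagen, against 7.22% of all genes tested, with a list median of 1.54. Ccne2 (2.75, SE 0.38) and Ccne1 (2.25, SE 0.63), both E-type cyclins, and Cdk4 (1.73, SE 0.30), the partner of D-type cyclins, had the largest log2 fold changes of those called. Ccne1, with a telogen mean of 8.498 normalized counts, lost its call when any library other than telogen replicate 3 was left out (adjusted p-values of 0.0689 to 0.2). Of the 12 PRC1.6 genes that work with E2F6, Cbx3, a reader of methylated H3K9, was called higher (1.22, SE 0.23, adjusted p = 0.00725) and Max, which pairs with MGA in the complex, was called lower (-1.08, SE 0.27, adjusted p = 0.0257). Over all genes tested, 7.22% were called higher and 4.35% lower, so 1 call each way among 12 genes is near those shares. The adjusted p of Max was 0.0777, 0.0975 and 0.0796 without anagen replicates 1, 2 and 3 and 0.058 without telogen replicate 2. Of 10 germline genes known as E2F6 targets, 3 were tested, with a median log2 fold change of 1.76. Tdrkh (1.80, SE 0.59, adjusted p = 0.0736) and Smc1b (1.76, SE 1.21, adjusted p = 0.378) were not called, whereas Stag3, a meiotic cohesin gene, was called lower (-2.46, SE 0.58, adjusted p = 0.0206), a call that was lost without any one of anagen replicates 1, 2 and 3 (adjusted p = 0.0607, 0.072 and 0.063) or telogen replicate 1 (0.0541). Eed, Ezh2 and Suz12, Polycomb genes reported as E2F targets, were not called, with log2 fold changes of 0.14, 0.33 and 0.06.

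Target genes of E2F and DREAM were higher in anagen too. Of 30 G1/S targets of E2F, which serve DNA replication and nucleotide synthesis, 25 were called higher in anagen and 0 lower, 13 passed the thresholds of the methods, and the median log2 fold change was 1.91. Uhrf1 (5.36, SE 0.71), which maintains DNA methylation, Mcm10 (4.90, SE 0.66) and the origin gene Orc1 (4.73, SE 0.95) had the largest log2 fold changes of the list. Their telogen means were 23.32, 6.508 and 8.944 normalized counts, so the sizes of these changes rest on low telogen values. Of 21 G2/M genes held down by DREAM, 20 were called higher, all 20 past the thresholds, with a median of 4.18. The checkpoint genes Bub1b (6.64, SE 0.54) and Bub1 (5.90, SE 0.50) and the mitotic kinase gene Cdk1 (5.33, SE 0.50) led it. Their telogen means were also low, at 14.35, 4.286 and 12.29 normalized counts. Bub1 and Mcm10 were below 10 in every telogen library, so they passed the filter on low values through anagen. Of all genes tested, 7.22% were called higher in anagen. The 2 lists hold genes that the cell cycle is known to move, and they were chosen with earlier results known. The summed level of the G2/M genes was 1230 to 1668 in telogen and 27990 to 44850 in anagen.

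**Figure D4:**
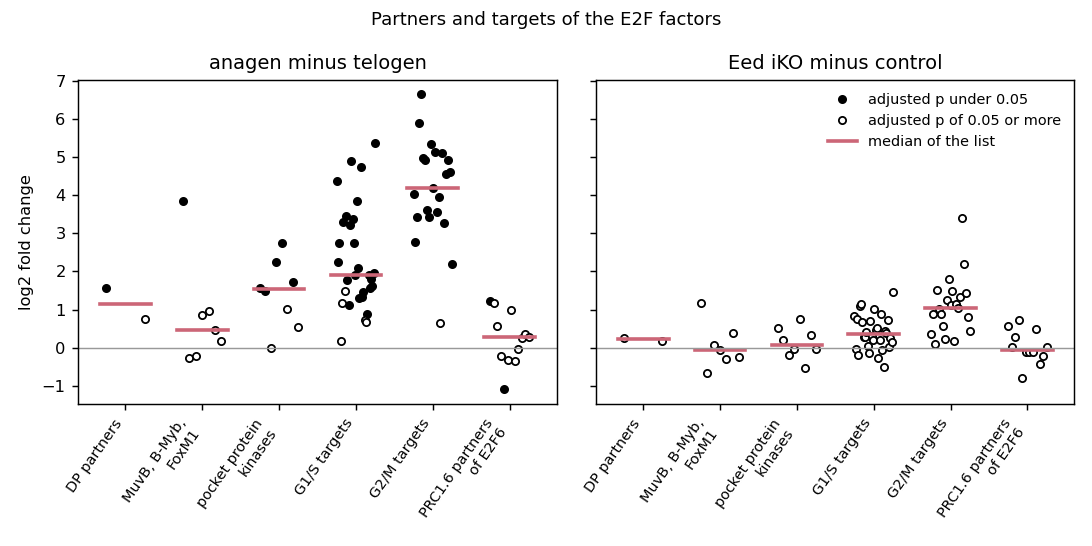
Log2 fold changes of each tested gene of 6 lists of E2F partners and targets, for anagen minus telogen (left) and Eed iKO minus control (right), with filled points for an adjusted p under 0.05 and red bars for list medians. The medians of the G1/S and G2/M targets are 1.91 and 4.18 on the left and 0.35 and 1.05 on the right, where no point is filled.

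Genes whose profile over the 6 hair cycle libraries lay closest to that of E2f1 included Fignl1, Gins2, Lmnb1 and Tacc3. The root mean square difference of their centred log2 values from E2f1 was 0.28, 0.28, 0.29 and 0.30. Those closest to E2f8 were Aspm (0.31), Melk (0.35), Ncaph (0.37), Tpx2 (0.41) and Spc25 (0.41). The measure uses levels in 2 stages, so any gene with a like difference between stages scores low.

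The comparison of Eed iKO with control HFSCs asked what the loss of PRC2 does to resting stem cells. Eed itself had normalized counts of 1095 ± 149.6 in control and 1099 ± 229.9 in the libraries labelled Eed iKO (SD, n = 3 each), a log2 fold change of -0.01. This value is summed over the whole gene and the deleted exons are not given in the sources used here, so it does not check the deletion. The assays the study used for that purpose, qRT-PCR of Eed and staining of H3K27me3, were not analysed here, and groups below are by label. Of the 10 genes, 0 were called by limma, where 0.0267% of the 15008 genes tested were called in either direction. At an unadjusted p under 0.05 there were 2 of the 10, E2f1 higher and E2f4 lower, against 14.7% of all genes. On recovered reads edgeR called 0 of the 10, and 0.0333% of all genes, and DESeq2 called 1 of the 10, and 4.48% of all genes. E2f1 alone passed the thresholds of the methods, a log2 fold change over 1.5 with a p under 0.05 (read as above), which 0.826% of all genes passed upward. E2f1 and Rbl1 were the 2 genes of the 10 with all libraries labelled Eed iKO above all control libraries, as were 10.2% of all genes. The median log2 fold change was 0.06 over the 10 genes and -0.00 over all genes tested.

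**Figure D5:**
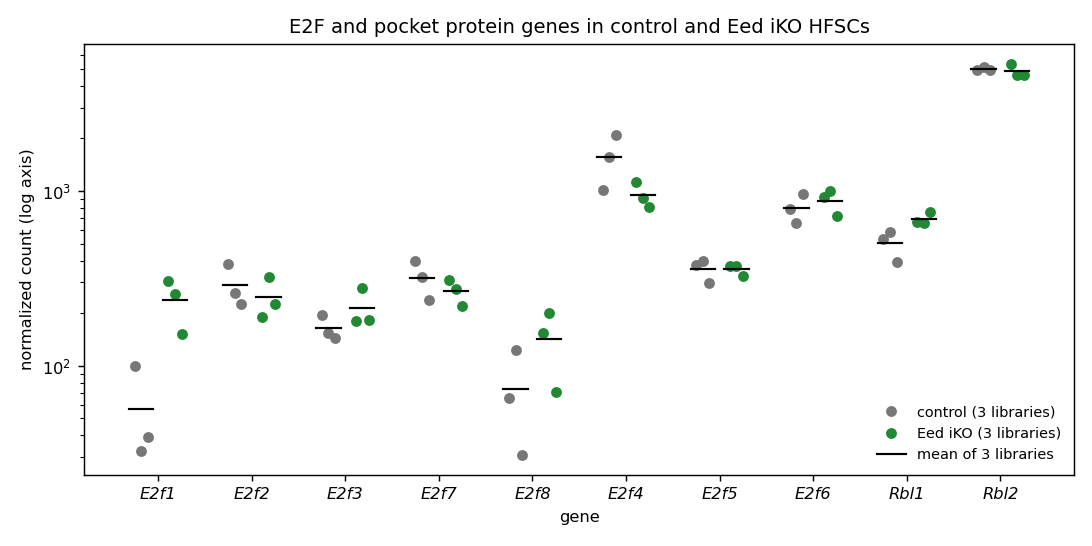
Normalized counts (log axis) of the 10 genes in each of the 3 control (grey) and 3 Eed iKO (green) libraries, with the mean of each group as a black bar. The points of E2f1 and Rbl1 lie apart, E2f1 by more, and those of the other 8 genes overlap.

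E2f1 had normalized counts of 99.2, 32.5 and 39.0 in the control libraries and 307.5, 257.6 and 152.2 in the libraries labelled Eed iKO. The lowest of the latter was above the highest control, and the ratio of the means, 56.9 ± 36.8 and 239.1 ± 79.3 (SD, n = 3 each), was 4.2. The log2 fold change was 2.17 (SE 0.55, 95% interval 0.95 to 3.39, unadjusted p = 0.00246 in limma) with an adjusted p of 0.13. DESeq2 gave 2.06 with an adjusted p of 0.0108 and edgeR 2.06 with 0.152, and over all 14 alternatives the log2 fold change ranged from 1.86 to 2.65 and the adjusted p from 0.0108 to 0.463. Per kilobase, E2f1 stood ninth of the 10 genes in control, at 20.7 ± 13.4, and sixth in the libraries labelled Eed iKO, at 86.8 ± 28.8. There its range overlapped that of its lower neighbour E2f2 and stayed below that of Rbl1.

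The other activators and E2f8 moved less. E2f2 had 385.1, 261.1 and 224.9 in control and 189.2, 324.0 and 226.4 in the libraries labelled Eed iKO (log2 fold change -0.23, 95% interval -1.04 to 0.57). E2f3 had 195.0, 153.8 and 144.2 against 180.6, 277.6 and 183.9 (0.36, 95% interval -0.47 to 1.2). Both overlapped, and E2f1 amounted to 12.4% to 25.8% of E2f2 in the control libraries and to 67.2% to 162.0% in the libraries labelled Eed iKO. E2f8 had 65.9, 123.5 and 30.8 against 153.8, 201.9 and 71.2 (1.03, SE 0.63, adjusted p = 0.471). The control replicate 2 and Eed iKO replicate 3 libraries crossed, so the groups overlapped, and without control replicate 2 its log2 fold change was 1.51, past the thresholds of the methods, and without control replicate 3 it was 0.53. As a share of E2f6, E2f8 amounted to 8.36%, 18.7% and 3.2% in control and 16.6%, 20.3% and 9.94% in the libraries labelled Eed iKO, with overlap. E2f7 had a log2 fold change of -0.23 (95% interval -0.97 to 0.51).

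E2f4 had normalized counts of 1014, 1559 and 2096 in control and 1123, 912.3 and 809.7 in the libraries labelled Eed iKO. The control libraries spread widely and replicate 1 of each group overlapped, with a log2 fold change of -0.67 (SE 0.27, adjusted p = 0.282). E2f1 amounted to 9.79%, 2.08% and 1.86% of E2f4 in control and to 27.4%, 28.2% and 18.8% in the libraries labelled Eed iKO, without overlap. E2f5 and E2f6 had log2 fold changes of -0.00 (95% interval -0.63 to 0.63) and 0.13 (95% interval -0.39 to 0.65), with ranges that overlapped.

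Rbl1 had 533.5, 586.0 and 390.8 in control and 664.5, 660.0 and 756.3 in the libraries labelled Eed iKO, groups that did not overlap. Its log2 fold change was 0.48 (SE 0.25, 95% interval -0.07 to 1.03, adjusted p = 0.401). Rbl2, the most abundant of the 10 genes per kilobase in both groups (1010 ± 19.8 and 988 ± 87.9), had 4926, 5097 and 4930 in control and 5363, 4639 and 4590 in the libraries labelled Eed iKO. Its log2 fold change of -0.04 had the narrowest 95% interval of the 10 genes, -0.33 to 0.26. Rbl1 amounted to 7.93% to 11.5% of Rbl2 in control and 12.4% to 16.5% in the libraries labelled Eed iKO.

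None of the partner and target lists had a gene called by limma in this comparison. Tfdp1 (0.26) and Tfdp2 (0.19) had log2 fold changes near 0. Of the 30 G1/S targets, 24 had a log2 fold change above 0, with a median of 0.35, and 7 had an unadjusted p under 0.05. Of all genes tested, 49.9% were above 0 and 14.7% had an unadjusted p under 0.05 in either direction. For the G1/S targets edgeR called 0 and DESeq2 2. Rrm2, a ribonucleotide reductase subunit (0.72, SE 0.17, adjusted p = 0.113), and Pola1, a DNA polymerase subunit (0.88, SE 0.23, adjusted p = 0.137), had the smallest p-values of the list. All 21 G2/M genes had a log2 fold change above 0, with a median of 1.05, and 2 passed the thresholds and an unadjusted p under 0.05, Nek2 (3.41, SE 1.26) and Cdk1 (1.80, SE 0.64). The groups of Nek2 overlapped, and its log2 fold change was 1.68 with edgeR, 1.67 with DESeq2, 2.11 without control replicate 1 and 5.12 without control replicate 2. For this list edgeR called 0 and DESeq2 1.

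The libraries labelled Eed iKO differed among themselves in these mitotic genes. The summed level of the 21 G2/M genes was 17050, 15890 and 2017 in them and 2953, 6982 and 2668 in control, so that Eed iKO replicate 3 was the lowest of all 6. In that library E2f1 was still above the highest control, at 152.2 against 99.2. Without it, the log2 fold change of E2f1 was 2.46 (adjusted p = 0.0829), that of Mki67 was 2.44 with an adjusted p of 0.0268, 2 G2/M genes were called, and the count of all genes called went from 4 to 203. The summed level of the 30 G1/S genes was 23750 to 26290 in control and 28020 to 36060 in the libraries labelled Eed iKO. Eed iKO replicate 3 also had the highest sum of epidermal markers, which was 13510, 4546 and 57780 in the libraries labelled Eed iKO and 10910, 8707 and 40140 in control. Replicate 3 was thus the highest in both groups. Immune, melanocyte and fibroblast sums overlapped between the groups, with immune sums of 148.4 to 349.1 and 201.7 to 560.2, melanocyte sums of 279.3 to 502.6 and 326.7 to 535.8, and fibroblast sums of 1687 to 3278 and 1293 to 1928. Hair germ and matrix sums did not overlap, at 7187 to 9679 in control and 5404 to 6401 in the libraries labelled Eed iKO. Of the 7 genes in these sums, only Dlx3 had groups that did not overlap. It had 4080, 3452 and 4965 in control and 2145, 1586 and 2356 in the libraries labelled Eed iKO. Groups lay apart downward, as for Dlx3, in 1503 of the 15008 genes tested. Of the 7, 2 had a log2 fold change above 0. Cd207, a Langerhans cell marker, was at 0 in all control libraries and at 13.28 to 23.73 in those labelled Eed iKO. The other immune genes tested overlapped, with log2 fold changes of 0.33, -0.48 and 0.36. Bulge marker sums overlapped, at 1341000 to 1568000 in control and 1475000 to 1717000 in the libraries labelled Eed iKO. Of 10 bulge genes, 4 had groups apart upward and 2 downward, against 1530 and 1503 of the 15008 genes tested. DESeq2 called 1 of them, Krt14 (0.82 in limma, SE 0.18). The part of these differences in the E2f1 result was not tested.

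Among the 12 PRC1.6 genes, 5 had an unadjusted p under 0.05, against 14.7% of all genes tested. For this list edgeR called 0 and DESeq2 called 2, Max and Cbx3. Max had 11770, 11310 and 9777 in control and 6287, 6404 and 6130 in the libraries labelled Eed iKO, groups far apart (log2 fold change -0.80, SE 0.13, adjusted p = 0.0817). Without Eed iKO replicate 3 its log2 fold change was -0.78 with an adjusted p of 0.031. Cbx3 had a log2 fold change of 0.56 (SE 0.15, adjusted p = 0.141), and 0.70 with an adjusted p of 0.0454 without Eed iKO replicate 3. The germline genes Stag3 (-0.94) and Tdrkh (-0.35), 2 tested of the 10 in the list, had 0 calls by any of the 3 tools and 0 with an unadjusted p under 0.05. Of the 7 MuvB, B-Myb and FoxM1 genes, Lin37 (-0.66, SE 0.27) was the 1 with an unadjusted p under 0.05 in limma, and Foxm1 had 1.17 (SE 0.70). Of the 8 cyclin and kinase genes, Ccnd1 (0.51, SE 0.17) and Cdk2 (-0.54, SE 0.22) were the 2 with an unadjusted p under 0.05. The share over all genes, 14.7%, stands beside both counts. edgeR and DESeq2 called 0 in both of these lists. Ezh2 (-0.09) and Suz12 (0.10) were near 0.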

How the data were processed

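Gene expression was measured by RNA-seq in 12 libraries of sorted HFSCs, grouped by the labels. The authors quantified reads with Kallisto (version 0.42.5) on Gencode vM20 transcripts (mm10). The deposited values are a signal, namely gene counts that the authors normalized with DESeq2. The deposited log2 fold changes and p-values of the authors were not used.

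Each table was fitted on its own with limma 3.58.1 (R 4.3.3) with an intensity trend on log2(value + 1), after filterByExpr at a count minimum of 10 (15008 and 13457 genes), with Benjamini-Hochberg adjustment over all genes. In the table with Eed iKO, 100% of values were whole multiples of 1 constant per library (tolerance 0.001 reads), so edgeR 4.0.16 and DESeq2 1.42.0 were run on the recovered reads as alternatives. In the hair cycle libraries 0.1% to 0.3% of values were, so reads were not recovered there. The scripts were tested on simulated data. P-values measure the spread between libraries, which the study describes as biological replicates in the Eed comparison. How animals map to the hair cycle libraries is not given in the sources used here. The methods do not say whether the p in their thresholds is adjusted, whereas a legend gives a fold change of at least 1.5 with an adjusted p. The log2 thresholds of the methods were used here with an unadjusted p, which is not the rule of the legend. The methods also applied them with DESeq2 to protein-coding genes above an expression cut, whereas here they were applied to the limma fits. Coordinates, lengths and overlaps are from GENCODE vM21 (GRCm38).

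The genes and lists were chosen with earlier results of these data known. Named were the 10 genes, the DP partners, Eed, in each list the called genes (at most the 3 largest and 3 smallest log2 fold changes) or else the 2 smallest p-values, and the 5 profiles closest to E2f1 and E2f8. Of these, 1 is not reported here. The other alternatives were a pseudocount of 0.1, no filter, a mean of at least 50, TMM scaling, no trend, the replicate block, each library left out, the thresholds of the methods and the union of exons as the length. Mki67, Dct, Cd34, Itga6, Krt14, Flg, Cd207, Dlx3, Msx1 and Msx2 were named as values that moved beside a result, and Krt15 and Krt5 as parts of a sum. Smc1b and Tdrkh, in anagen, were chosen after their values were seen.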

Additional observations from a re-analysis of the deposited data

How the results depend on the processing

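E2f1, E2f3 and E2f8 stayed called in anagen in all 12 alternatives and E2f2 in 11. For E2f1 in Eed iKO, 2 of 14 alternatives gave a call, DESeq2 and the replicate block. In the Eed comparison, the count of all genes called was 13 with a mean of at least 50, 2 with no trend, 424 with the replicate block, 673 with DESeq2 and 263 at the thresholds of the methods, against 4. Of the 10 genes, 1 was called with the block, with DESeq2 and at the thresholds. G1/S targets numbered 1 with the block and 2 with DESeq2, and G2/M targets 1 with either and 2 at the thresholds. In the hair cycle, all genes called numbered 842 with no trend and 686 at the thresholds, and G1/S targets 13 at the thresholds. Leaving out each library gave 1 to 203 genes called in the Eed comparison (203 without Eed iKO replicate 3 and 1 without any other), 0 to 2 G2/M targets, 1 to 2 of the 10 genes past the thresholds, and 597 to 1529 genes in the hair cycle (597, 712 and 854 without anagen replicates 1, 2 and 3). With no trend, Foxm1, Max, Stag3 and Cbx3 lost their calls in anagen (adjusted p = 0.0727, 0.114, 0.0552 and 0.0643). Signs turned for log2 fold changes near 0, for E2f5 under TMM scaling (0.00) and for Eed under edgeR and DESeq2 (0.00). The cause was not tested.

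When libraries were left out, log2 fold changes in Eed iKO ranged from -0.13 to 0.08 for E2f5, -0.00 to 0.27 for E2f6, -0.11 to 0.00 for Rbl2, -0.17 to 0.10 for Eed, -0.22 to 0.02 for Ezh2, -0.01 to 0.24 for Suz12 and -0.81 to 0.38 for Tdrkh. In anagen they ranged from -0.38 to 0.17 for E2f4, -0.13 to 0.09 for E2f5 and -0.03 to 0.32 for Eed. Deviations of same-numbered libraries correlated by 0.039, 0.068 and 0.193 in the Eed table, where replicate 3 gave the highest value. Those of differently numbered libraries correlated there by -0.145 to 0.077. In the hair cycle table the values were -0.035, -0.071 and -0.029 for same numbers and -0.017 to 0.055 for different numbers. Whether libraries pair by number was not tested. With the replicate block, E2f1 in Eed iKO had an adjusted p of 0.0431, Max 0.00443, Cbx3 0.0442 and Rrm2 0.0416, and Ccne1 in anagen 0.0766. The hair cycle depth is unknown, so no counting interval was given.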
